A study of Mus musculus with 4 samples.

Results

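The AP-1 and immediate early genes measured here were Fos, Fosb, Fosl1, Fosl2, Jun, Junb, Jund, Egr1, Srf and Ier3, 10 of the 21154 genes that could be named on the array. The rule used no measured value: a probe was assigned to a member when its RefSeq accession mapped to the symbol. The rule found 12 probes, 1 for each of 8 genes and 2 each for Fosl2 and Srf. They occupied 21 features per array, because the Fos probe was printed in 10 copies. All 12 probes were well above background on all 4 arrays, so every member entered the comparisons.

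The cells were mouse mesenchymal stromal cells (MSCs) in primary culture, at passage 5, into which short hairpin RNAs had been brought by retrovirus. The cells labelled mMSC shControl carried a control hairpin, and those labelled mMSC shlSLR no.1, no.2 and no.3 each carried a hairpin to another target sequence of Islr. Islr encodes Meflin, a surface and secreted protein of stromal cells. They are called control and hairpins 1 to 3 here, and each was on 1 array. Every group therefore carried a retroviral hairpin, and none was untransduced. Strain, age and whether the cultures shared a preparation are not stated in the labels, so the spread between hairpins is a spread between 3 cultures with different hairpins, and the control has no spread of its own.

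AP-1 is a pair of leucine zipper proteins that binds DNA as a Jun family homodimer or as a dimer of a Jun with a Fos family protein. Immediate early genes such as Fos and Egr1 are transcribed within minutes of a growth factor or stress signal without new protein synthesis, largely through MAP kinases that act on SRF and its ternary complex partners, and their messages are short lived. In fibroblasts and stromal cells AP-1 is known for driving protease, cytokine and cell cycle genes, and Fosl1 and Fosl2 are its slower, longer lasting Fos family members.

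The promoters of 4 members are shown because these genes either differed most between hairpins (Fos, Junb and Ier3) or hold the site of the SRF protein itself (Srf). They are the 250 bases before the RefSeq start in build GRCm38.p6, written 5′ to 3′ in the direction of transcription. Windows were searched for 8 of the 10 members. Fosl1 and Egr1 had no window among those searched, so their sites were not examined. The search of the members skipped a chromosome, a filter that was not applied to the shares over all windows given below. Capitals mark matches on either strand to the CArG box bound by SRF, to TGACG, the core of the cyclic AMP response element, and to TATAAA.
Fos, chr12:85473640-85473889, plus strand: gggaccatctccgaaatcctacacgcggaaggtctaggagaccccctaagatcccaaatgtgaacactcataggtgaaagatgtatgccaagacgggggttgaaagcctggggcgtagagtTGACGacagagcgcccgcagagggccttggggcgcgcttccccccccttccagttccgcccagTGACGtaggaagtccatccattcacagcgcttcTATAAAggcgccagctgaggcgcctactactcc
Junb, chr8:84978749-84978998, minus strand: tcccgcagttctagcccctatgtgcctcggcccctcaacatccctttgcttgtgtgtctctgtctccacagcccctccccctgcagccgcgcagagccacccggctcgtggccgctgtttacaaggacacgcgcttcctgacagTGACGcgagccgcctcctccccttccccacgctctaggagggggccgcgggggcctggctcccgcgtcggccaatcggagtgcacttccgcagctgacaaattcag
Ier3, chr17:35821463-35821712, plus strand: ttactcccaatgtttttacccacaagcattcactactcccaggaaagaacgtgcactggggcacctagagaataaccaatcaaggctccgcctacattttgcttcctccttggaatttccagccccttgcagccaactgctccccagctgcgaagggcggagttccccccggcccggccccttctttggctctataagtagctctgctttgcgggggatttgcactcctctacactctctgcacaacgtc
Srf, chr17:46556163-46556412, minus strand: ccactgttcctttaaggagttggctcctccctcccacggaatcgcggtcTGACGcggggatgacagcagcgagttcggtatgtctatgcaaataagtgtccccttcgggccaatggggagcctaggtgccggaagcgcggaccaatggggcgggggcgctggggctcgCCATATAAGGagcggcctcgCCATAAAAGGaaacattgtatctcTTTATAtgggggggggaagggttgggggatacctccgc

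The Srf promoter held 2 CArG boxes, from -82 to -73 and from -62 to -53 relative to the start. Srf was the 1 member with such a box among the 8 searched, which leave out Fosl1 and Egr1. Of 32851 promoter windows of this length, 1.47% held a CArG box. TGACG was present in 4 of the 8 members, Fos (at -129 and -66), Fosb (-60), Junb (-106) and Srf (-201), against 17.8% of all windows. TATAAA was found in Fos at -33 and on the opposite strand of Srf at -38, against 12.4% of all windows. The pattern TGANTCA takes in the AP-1 site but allows any base at its centre, and 6.75% of all windows held it. Neither it nor the full element TGACGTCA (1.55%), which contains TGACG, was in any of the 8. Near matches, such as TGACATCA in the Jun window, were not counted, so this does not show that a member lacks a site for AP-1. A match describes the letters in the window only, and sites outside the window were not searched for any member, Fos included.

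Processed signals are given in the scanner software's linear units, and differences are log2, hairpin minus control, after each array was scaled to its 75th percentile. On each array 49.4% to 53.8% of the 59305 features passed the software's test for signal well above background. Islr had a signal of 453.6 on the control, 11 on hairpin 1, 70.5 on hairpin 2 and 3.44 on hairpin 3, of which the values on hairpins 1 and 3 were not well above background. The software's error for a member's signal gave an error of 0.20 to 0.24 on a log2 difference between 2 arrays. The 244 probes printed in at least 10 copies and well above background had a median SD between copies of 0.06 to 0.07 (log2) within an array. Both errors leave out the variation between cultures. All 8 mesenchymal stromal markers checked were above background on all 4 arrays, with summed signals from 346594 to 435244, mostly collagen genes. Single markers were uneven: 2 lay above and 4 below the control on all 3 hairpins, Thy1 was at 1.68, 0.91 and 0.77 on hairpins 1 to 3, Pdgfra at -0.10, -1.15 and -1.17, Pdgfrb at -0.05, -1.15 and -0.56, and Nt5e at -1.48, 0.89 and 0.24. Of 5 macrophage and blood markers, Ptprc and Adgre1 were above background on no array. Cd68, Csf1r and Itgam were above it on all 4, with signals of 475.2, 1368 and 8880 on the control. The summed signal of the 5 was 10744 on the control and 10142, 8903 and 6399 on hairpins 1 to 3, mostly Itgam. Of 4 endothelial markers Pecam1 and Kdr were above background on all 4 arrays, and Cdh5 and Tek on no array. The summed signal ranged from 3318 to 3600, mostly Kdr (3532 on the control). The part of these markers in the results below was not tested.

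The comparison of the hairpins with the control asked whether genes of the immediate early response differ when Islr is depleted. Fosl1 was 1.58-fold higher on average and Ier3 1.45-fold, while Egr1 was 1.40-fold, Fos 1.34-fold and Fosl2 1.33-fold lower. No member passed limma's test (adjusted p from 0.964 to 0.995), and 0 of 10 had an unadjusted p under 0.05. On 15157 simulated probes, whose spread was taken from the 3 hairpins, this design called 0 of 100 changed 2-fold and 0 of 100 changed 4-fold. The simulation used single probes without the filter of the real data. A member that missed the threshold was not shown to be unchanged. Over all 13567 genes tested, limma called 0 genes (0%) higher and 47 (0.346%) lower, while 1.52% were higher and 3.31% lower at an unadjusted p under 0.05. Among the 12716 genes above background on all 4 arrays it called 0 in either direction. Each of the 47 was thus below background on at least 1 array. Fosl1, Jun and Ier3 were above the control on all 3 hairpins, which 27.6% of all genes were. Fos, Fosl2 (on the brighter of its probes only) and Egr1 were below the control on all 3, which 24.6% of all genes were. Of the 12716 genes above background on all 4 arrays, as the members were, 3668 lay above and 2884 below the control on all 3. With quantile normalization Fos lay at 0.01 on hairpin 3, and with normexp background correction as well at 0.04, and left the count of members below the control. Together 6 of 10 members had 1 sign on all 3 hairpins, against 52.2% of all genes, a share near the background. The 3 differences of a gene share the control array.

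**Figure D1:**
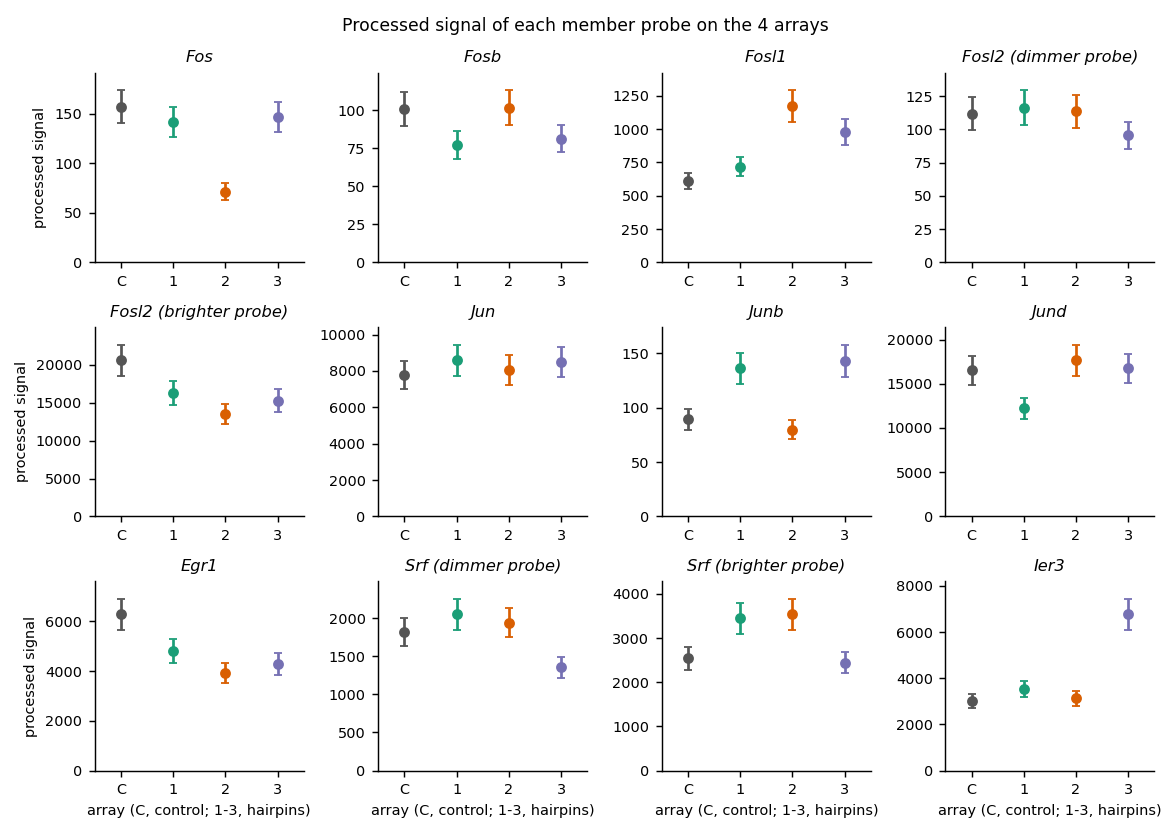
Processed signal (linear scale from 0) of each of the 12 member probes on the control array (C) and on hairpins 1 to 3, with bars for the scanner software's error. Fos was low on hairpin 2 alone, Ier3 high on hairpin 3 alone, and Junb high on hairpins 1 and 3.

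Fos, the gene of the founding c-Fos partner in AP-1, had a signal of 157.1 on the control, 141.4 on hairpin 1, 71.1 on hairpin 2 and 146.5 on hairpin 3. Hairpin 2 stood apart, and the other 3 arrays lay close together. The differences were -0.06, -1.12 and -0.07, so that Fos was 2.17-fold lower on hairpin 2, with a mean of -0.42 ± 0.61 (SD, n = 3; limma adjusted p = 0.97). The 10 copies of the probe measured the same cultures again. Their signals ran from 146 to 169 (median 156) on the control, from 131 to 154 (median 143) on hairpin 1, from 63.8 to 79.6 (median 70.3) on hairpin 2 and from 136 to 160 (median 147) on hairpin 3. No copy on hairpin 2 reached the range of another array, and the 3 other ranges overlapped. Copy by copy, the difference was -1.12 ± 0.14 (SD over 10 copies of 1 array pair) on hairpin 2, lower in 10 of 10 copies, against -0.06 ± 0.11 on hairpin 1 and -0.07 ± 0.09 on hairpin 3. Copies on an array are not replicate cultures, so this spread says nothing of how a second culture with hairpin 2 would read.

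**Figure D2:**
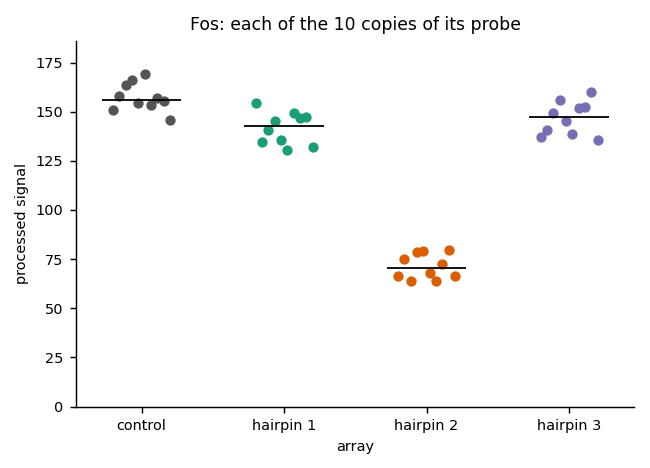
Processed signal (linear scale from 0) of each of the 10 copies of the Fos probe on each array, with a line at the median. The copies on hairpin 2 lay between 63.8 and 79.6 and those on the other arrays between 131 and 169.

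The low Fos value depended on hairpin 2: without it the mean difference was -0.07. It also shrank with a background correction that adds an offset (normexp with quantile normalization), to -0.66 on hairpin 2; by construction an offset weighs most on dim probes such as this one. Of all genes tested, 2.25% were at least 1.5-fold lower on hairpin 2 than on each other array, a rule chosen after the values were seen. Among the 12716 genes above background on all 4 arrays, 9.81% spanned a wider range over the arrays than the 1.12 of Fos.

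Fosb, a Fos relative that also exists as a shortened, long-lived form, was another dim probe. Its signals were 100.4 on the control and 76.9, 101.6 and 81.3 on hairpins 1 to 3. Hairpin 2 equalled the control within the error, and hairpins 1 and 3 were lower by little more than it, with differences of -0.29, 0.04 and -0.28 and a mean of -0.18 ± 0.19.

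Fosl1, the gene of Fra-1, a Fos family protein found in migrating and transformed cells, had signals of 611.6 on the control, 716.6 on hairpin 1, 1174 on hairpin 2 and 976.7 on hairpin 3. All 3 hairpins lay above the control, hairpin 1 least. The differences of 0.32, 0.96 and 0.71 amount to 1.25-fold, 1.95-fold and 1.63-fold, with a mean of 0.66 ± 0.32 (unadjusted p = 0.0901 and adjusted p = 0.964 by limma). This was the largest mean among the 10 members, and 6.36% of genes above background on all 4 arrays had a larger one in either direction. Leaving out each hairpin in turn gave means from 0.51 to 0.83, and other scalings and background correction gave means from 0.65 to 0.67. The rest of the 13 alternatives run left the mean of this single probe as it was.

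Fosl2, the gene of Fra-2, was read by 2 probes that disagreed. The brighter one had signals of 20640 on the control, 16280 on hairpin 1, 13500 on hairpin 2 and 15290 on hairpin 3, all 3 below the control. Its differences were -0.25, -0.59 and -0.40 (mean -0.41 ± 0.17). The dimmer probe had signals of 111.8, 116.3, 113.5 and 95.5 in the same order, differences of 0.15, 0.05 and -0.20, and a mean of -0.00024. No array of the dimmer probe differed from the control by more than the scanner's error. Both carry the same RefSeq accession, and which transcript each reads was not tested.

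Jun, the gene of c-Jun, the partner that AP-1 dimers share most often, varied least of the 10 members. Its signals were 7794 on the control and 8595, 8048 and 8492 on hairpins 1 to 3, and its mean difference was 0.15 ± 0.08. On 2 of the hairpins the difference was within the scanner's error of 0.20, and 84.1% of genes above background on all 4 arrays spanned a wider range than Jun.

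Junb, the gene of a Jun protein that can oppose c-Jun, split the hairpins. The signals were 89.2 on the control, 136.1 on hairpin 1, 79.8 on hairpin 2 and 143.4 on hairpin 3. Hairpins 1 and 3 were 1.63-fold and 1.64-fold above the control, and hairpin 2 lay with the control. The differences were 0.70, -0.14 and 0.71 (mean 0.43 ± 0.49; limma adjusted p = 0.967), and without hairpin 2 the mean was 0.71.

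Jund, the gene of the Jun protein that is most constant in resting cells, had signals of 16500 on the control, 12210 on hairpin 1, 17660 on hairpin 2 and 16740 on hairpin 3. Only hairpin 1 differed from the control by more than the scanner's error (-0.34, against 0.12 and 0.05, the last of which turned to -0.07 with quantile normalization), and the mean was -0.06 ± 0.25. Without hairpin 1 its sign turned, to 0.086.

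Egr1, the gene of a zinc finger factor of the immediate early response, was below the control on all 3 hairpins. The signals were 6282 on the control, 4814 on hairpin 1, 3914 on hairpin 2 and 4289 on hairpin 3. The hairpins lay closer to each other than hairpin 2 or 3 did to the control. The differences were -0.29, -0.66 and -0.52, that is 1.22-fold, 1.58-fold and 1.43-fold lower, with a mean of -0.49 ± 0.19 (unadjusted p = 0.0929 and adjusted p = 0.964 by limma). Of genes above background on all 4 arrays, 13.2% had a larger mean in either direction, and leaving out each hairpin kept the mean of Egr1 between -0.59 and -0.41.

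Srf, the gene of serum response factor, which switches on Fos and Egr1 and the cytoskeletal genes, was read by 2 probes. The brighter had signals of 2538 on the control and 3444, 3537 and 2442 on hairpins 1 to 3, with differences of 0.53, 0.50 and -0.03. The dimmer had 1818, 2052, 1944 and 1355, with differences of 0.27, 0.12 and -0.39. On both probes hairpin 3 was the lowest of the 4 arrays, but they disagreed on the mean, 0.34 ± 0.31 for the brighter and -0.0018 for the dimmer. With median scaling hairpin 3 of the brighter probe lay at 0.01, level with the control.

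Ier3, the gene of a stress-induced protein that affects cell survival, had signals of 3011 on the control, 3526 on hairpin 1, 3127 on hairpin 2 and 6773 on hairpin 3. Hairpin 3 stood apart, and hairpin 2 equalled the control within the error. The differences were 0.32, 0.08 and 1.20, with hairpin 3 at 2.30-fold the control and a mean of 0.53 ± 0.59 (limma adjusted p = 0.964). Without hairpin 3 the mean was 0.20. At least 1.5-fold above each other array on hairpin 3 were 2.76% of all genes tested, a rule chosen after the values were seen.

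**Figure D3:**
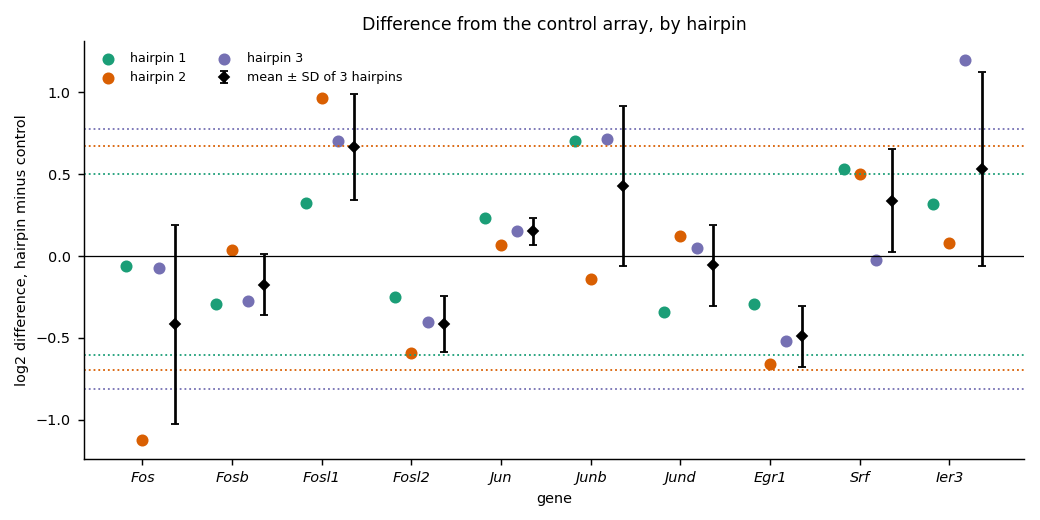
Log2 difference from the control array for each member and hairpin (coloured points), with the mean ± SD over the 3 hairpins (black). Dotted lines mark, in each hairpin's colour, the 5th and 95th percentiles of the 12716 genes above background on all 4 arrays (from -0.60 and 0.50 on hairpin 1 to -0.81 and 0.78 on hairpin 3); Fos on hairpin 2 and Ier3 on hairpin 3 lay farthest out.

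By size, a member was counted on a hairpin if its signal was at least 1.5-fold above or below that of the control, with 1 array on each side and no test. On hairpin 1 that was Junb (higher), against 4.05% of all genes higher. On hairpin 2 it was Fosl1 (higher) and Fos, Fosl2 and Egr1 (lower), against 7.28% of all genes higher and 9.35% lower. On hairpin 3 it was Fosl1, Junb and Ier3 (higher), against 9.68% of all genes higher. No member was at least 1.5-fold lower on hairpin 1 or 3, against 8.38% and 11.4% of all genes. Those shares include genes below background on a hairpin, which no member was. Among the 12716 genes above background on all 4 arrays, the 5th percentile was -0.60 on hairpin 1 and -0.81 on hairpin 3 (1.5-fold is 0.585 in log2). Fosl2 on hairpin 2 only just met the rule, at -0.5893 on its brighter probe. With normexp and quantile normalization that probe lay at -0.5705, short of the rule, and the dimmer probe lay at 0.05 in the main setting. At 2-fold there remained Fos on hairpin 2 (4.1% of all genes lower) and Ier3 on hairpin 3 (3.17% of all genes higher).

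The hairpins thus ranked the members differently. Hairpin 2 was the extreme array for Fosl1 on the high side and for Fos, Fosl2 and Egr1 on the low side. Hairpin 3 was the extreme array for Ier3, and hairpins 1 and 3 were high together for Junb. Islr itself had more signal on hairpin 2 than on hairpins 1 and 3. The order in which Fos, Fosl2 and Egr1 lay (below the control, farthest on hairpin 2, then 3, then 1) was shared by 4.09% of all genes tested. For Fos the order of hairpins 1 and 3 lay within the error, and the order was picked after the values were seen. For Fosl2 the order and the place of hairpin 2 held on its brighter probe only.

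Other genes of the pathway were taken from 7 lists with 101 genes, of which 93 were tested, and limma called none of them. Over all genes tested, 27.6% lay above and 24.6% below the control on all 3 hairpins. The partners and inhibitors of AP-1 dimers, 11 tested, had 5 genes above the control on all 3 hairpins and 3 below, with a median of the mean differences of 0.13, against 0.01 over all genes. Batf3, a leucine zipper partner of the Jun proteins, had signals of 47.1 on the control and 59.9, 151.3 and 80.9 on hairpins 1 to 3 (mean 0.98 ± 0.65). Atf3, a stress-induced member of the ATF family, was at 316.2 on the control, 259.6 on hairpin 1 and 627.1 and 746.2 on hairpins 2 and 3 (0.70 ± 0.78). Like Fosl1, both were higher on hairpins 2 and 3 than on hairpin 1. The large Maf factor gene Maf went the other way on every hairpin, from 3060 on the control to 1692, 1581 and 1393 (-0.93 ± 0.17; limma adjusted p = 0.673).

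Of 25 other immediate early genes tested, 9 were above the control on all 3 hairpins, 4 below and 12 went both ways, with a median of 0.10. Of all genes, 27.6% were above and 24.6% below. The orphan nuclear receptor gene Nr4a1 had signals of 6731 on the control and 10639, 7476 and 13919 on hairpins 1 to 3 (0.67 ± 0.46). Its relative Nr4a2 was at 0.82 ± 0.38 and the pseudokinase gene Trib1 at 0.74 ± 0.39. These 3 were highest on hairpin 3 and lowest of the hairpins on hairpin 2, as Ier3 was. Egr2, a close relative of Egr1, had differences of 0.67, -1.29 and -0.76 from hairpin 1 to hairpin 3, so it lay below the control on the 2 hairpins where Egr1 was lowest.

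Of the genes that work with SRF or are switched on by it, limma called none. Among 7 cofactor and ternary complex genes tested, 2 lay above and 1 below the control throughout (median -0.01), against 27.6% and 24.6% of all genes. Mrtfa, the actin-sensing cofactor gene, was at 0.18 ± 0.08 and Mrtfb at -0.17 ± 0.22. The Egr corepressor genes went apart, Nab1 at 0.33 ± 0.21 and Nab2 at -0.34 ± 0.34. Among 11 SRF target genes of the cytoskeleton, 5 lay above and 2 below it throughout, with medians of 0.35, 0.08 and 0.08 on hairpins 1 to 3. The smooth muscle genes Tagln (0.53 ± 0.21), Cnn1 (0.58 ± 0.38) and Acta2 (0.42 ± 0.32) were above the control and the adhesion gene Zyx (-0.32 ± 0.17) below it.

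Of 11 MAP kinase feedback inhibitors, which shut off the signal that induces these genes, 4 lay above and 1 below the control on every hairpin. The shares over all genes were 27.6% and 24.6%. The median of their mean differences was 0.33, while the medians on hairpins 1 to 3 were 0.27, 0.05 and 0.06. The phosphatase gene Dusp4 had signals of 462.2 on the control and 808.5, 625.0 and 1224 on hairpins 1 to 3 (0.93 ± 0.49), and Dusp10 was at 0.78 ± 0.43. Both lay highest on hairpin 3 and nearest the control on hairpin 2. The receptor signalling inhibitor gene Spry2 was below the control on every hairpin (-0.40, -0.83 and -1.51; mean -0.91 ± 0.56), and Spry1 was at 0.55 ± 0.57.

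AP-1 target genes had a median of 0.33 over 16 tested, with 8 above and 1 below the control on every hairpin, against 27.6% and 24.6% of all genes. Signals of 14 of these 16 cleared background on every array, and the medians on hairpins 1 to 3 were 0.36, 0.24 and 0.38. The urokinase receptor gene Plaur had signals of 1388 on the control and 1716, 3177 and 2686 on hairpins 1 to 3 (0.87 ± 0.42). It ranked the hairpins as Fosl1 did. Il6 (3.15, 0.92 and 3.34) and the chemokine gene Ccl2 (1.47, 0.46 and 1.19) were instead higher on hairpins 1 and 3 than on hairpin 2, as Junb was. Of the 93 pathway genes, 8.6% were above the control in the order of Fosl1 (hairpin 2, 3, 1) against 6.66% of all genes, and 12.9% in the order of Ier3 (hairpin 3, 1, 2) against 5.73%. Below the control in the order of Fos, Fosl2 and Egr1 (hairpin 2, 3, 1) were 0 of the 93, against 4.09% of all genes. These orders were picked after the values were seen.

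**Figure D4:**
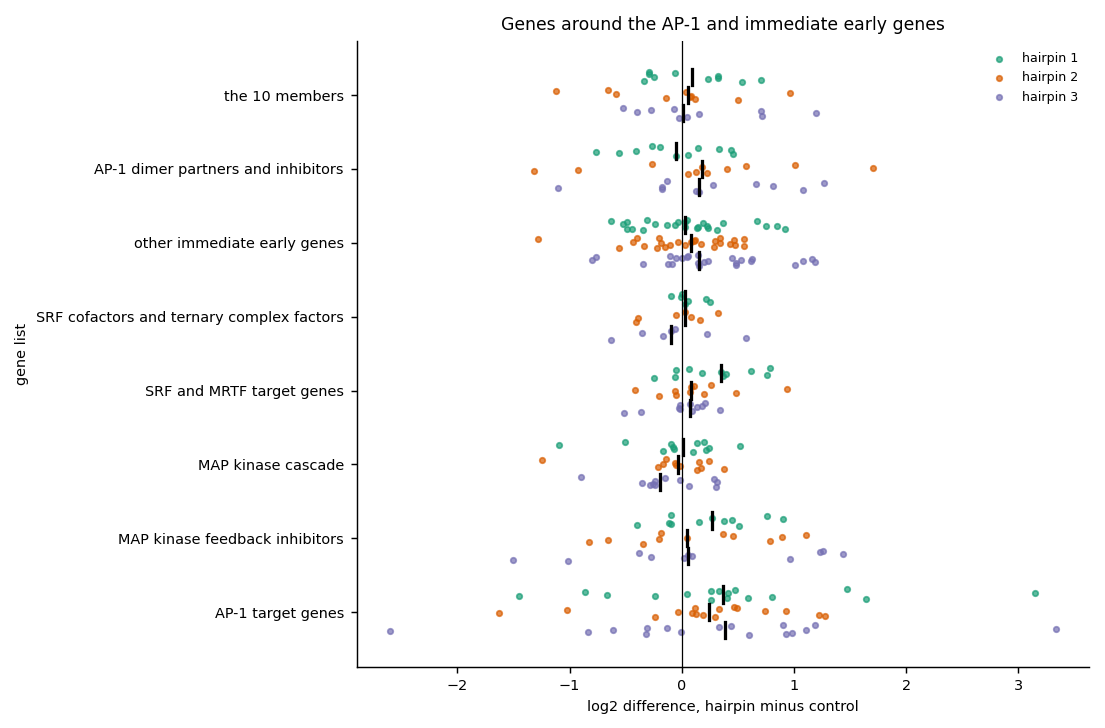
Log2 difference from the control array for every tested gene of the 10 members and the 7 pathway lists, by hairpin (coloured points), with the list's median on each hairpin (black bar). The medians lay between -0.19 (MAP kinase cascade, hairpin 3) and 0.38 (AP-1 target genes, hairpin 3).

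Profiles over the 4 arrays were compared for the members that spanned at least 1 log2 unit, Fos and Ier3, with all 12715 other genes above background on all 4 arrays. Nearest to Fos by Euclidean distance were Tmem150a (distance 0.04), Miga2 (0.05) and Flcn (0.06), with differences of -1.09, -1.06 and -1.14 on hairpin 2. Nearest to Ier3 were Serpinb2 (0.06), Serpina3h (0.11) and Cd274 (0.12), at 1.12, 1.16 and 1.29 on hairpin 3. Each of these likenesses rests on 4 arrays, 1 of which sets most of the profile.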

How the data were processed

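Each of the 4 arrays was a one-colour Agilent array, and all lay on 1 slide. Per the file headers, the authors extracted features by version 11.5.1.1 of Agilent Feature Extraction (protocol GE1_1105_Oct12, design 028005, build mm9). The deposited intensity is the processed signal, background-subtracted and detrended array by array. In turn, the authors' series table held the same intensity times 1 constant per array (2.02 to 2.25), whose choice is not stated.

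From these, the log2 values of a probe's features were averaged, scaled to the array's 75th percentile and named through RefSeq accessions (28026 probes named, 27655 not). Probes well above background on the control or on all 3 hairpins were kept, and the brightest probe stood for a gene. The 13567 genes were fitted together with limma 3.58.1 in R 4.3.3 (two-sided, Benjamini-Hochberg adjusted p under 0.05). Tested on simulated data, the fit recovered the sizes of the changes but called none of them. The fit takes the spread between hairpins for the lone control, and p-values measure only that spread. The number of arrays limits the precision.

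The members and lists were chosen with earlier results of these data known. Named were all members, Islr, up to 4 genes per list with the largest mean difference above background on all 4 arrays, and the 3 nearest profiles to members spanning at least 1 log2 unit; some genes that this rule names are not reported here. Alternatives were other scalings, background correction, filters, probe rules, an eBayes trend, outlier features and each hairpin left out.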

Additional observations from a re-analysis of the deposited data

How the results depend on the processing

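The 10 mean differences were recomputed under 13 alternatives each, and no member passed limma's test in any (smallest adjusted p = 0.794, for Junb). That is no sign of stability, since the design made no call on simulated data either. Of them 8 kept their sign throughout, though the filters and the eBayes trend left every member's mean as it was. Fosl2 moved from -0.41 to -0.21 over both probes and to -0.00024 with its dimmer probe. Jund turned to 0.086 without hairpin 1 (-0.15 to 0.086 over the hairpins left out), and Srf to -0.0018 when its dimmer probe was used, an alternative chosen after the data were seen. Leaving out 1 hairpin in turn moved the mean of Fos between -0.60 and -0.07, that of Ier3 between 0.20 and 0.76 and that of Junb between 0.28 and 0.71. The count of genes called lower by limma, 47, became 75 with quantile normalization and 81 at an adjusted p under 0.10, where 2 were called higher. It was 0 with normexp and quantile normalization, with no filter, with a filter on all 4 arrays, with an intensity trend, and with each hairpin left out (0 to 0). Of the 30 member differences, 8 reached 1.5-fold and 2 reached 2-fold. With normexp and quantile normalization 5 of the 30 reached 1.5-fold. With a hairpin left out 4 to 7 did, out of fewer differences, since those of that hairpin dropped out. The shares of all genes that reached 1.5-fold are given above for each hairpin. The counts of members above and below the control on all hairpins, 3 and 3, each moved by at most 1, to 4 and 4 without hairpin 2. With a hairpin left out only the other 2 had to share a sign. That rule is looser by construction, so those counts are not like for like, and no share over all genes was taken for it. With normexp and quantile normalization Fosb on hairpin 1 moved from -0.29 to -0.13, Junb on hairpin 1 from 0.70 to 0.52, and Fos on hairpin 3 from -0.07 to 0.04. Fos, Fosb and Junb had the lowest signals of the members. No paired analysis was possible because there is a single control array. A block for slide was not run, since all arrays shared 1 slide.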

Other observations

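The MAP kinase cascade that feeds AP-1 had a median mean difference near 0, though its median on hairpin 3 was -0.19, the lowest of the 7 pathway lists on any hairpin. Of 12 genes tested, 2 lay above and 4 below the control on every hairpin and 6 went both ways, with a median of 0.00084, and limma called none. Over all genes tested, 27.6% lay above and 24.6% below on every hairpin. The largest mean was that of the kinase gene Braf, with signals of 967.9 on the control and 637.0, 864.8 and 509.8 on hairpins 1 to 3 (-0.51 ± 0.38). Map2k4, the gene of a kinase upstream of JNK, was low on hairpin 1 alone, at 380.7 against 866.3 on the control and 816.7 and 721.1 on hairpins 2 and 3. Egfr, the epidermal growth factor receptor gene, was low on hairpin 2 alone, where Fos was low too, with signals of 3063 on the control, 3296 on hairpin 1, 1271 on hairpin 2 and 2712 on hairpin 3. No test of these single arrays can be made, since each stands alone.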
